A study of Mus musculus with 6 samples.

Results

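EGR1, EGR2, EGR3, NR4A1, NR4A2, NR4A3, IER2, IER3 and IER5 were taken by symbol from a table of transcript abundances in B16F10, a mouse melanoma cell line, and all 9 were among its 14915 gene symbols. The ZBTB5-S127A group (S127A, 3 libraries) came from B16F10 cells established to carry an alanine in place of serine S127 of ZBTB5, a BTB and zinc finger transcription factor, so that this residue cannot be phosphorylated. The WT group (3 libraries) came from wild-type B16F10 control cells. Cells of both groups were kept short of amino acids and treated with the inflammatory cytokine TNFα. Its dose and time, and the number of clones behind the S127A line, were not given in the sources used here. No untreated libraries were analysed here, so every difference is between treated S127A and treated WT cells and not a response to TNFα. The study's question, per its design text, was what blocking this phosphorylation does to gene expression where inflammation activates the growth kinase complex mTORC1.

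Early response genes are transcribed within minutes of a signal, without new protein synthesis, and their mRNAs and proteins are usually short-lived. EGR proteins are zinc finger activators that bind GC-rich sites and are induced through the ERK pathway, the serum response factor SRF and its ETS-type partners. NR4A proteins are orphan nuclear receptors that act without a classical ligand and are often induced through cAMP and CREB. In melanocytic cells the NR4A genes are known to respond to melanocortin receptor signalling. IER2, IER3 and IER5 share a name rather than a single protein family, and IER3 is a known target of NF-kB, the factor that TNFα activates.

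In these cells 7 of the 9 genes were higher and 2 were lower in S127A than in WT. EGR1 rose the most, to 152 ± 2.16 TPM in S127A cells, against 3.97 ± 0.0361 TPM in WT cells (SD, n = 3 each). NR4A3 fell the most, to 0.107 ± 0.0551 TPM in S127A cells, against 15.3 ± 1.56 TPM in WT cells. The EGR genes and the IER genes were all higher in S127A, whereas the NR4A genes split, with NR4A2 higher and NR4A1 and NR4A3 lower. TPM is a transcript abundance normalised for gene length and library total, so levels of different genes can be set side by side.

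These calls stand against a very broad difference between the groups. Of 10348 genes with a mean of at least 1 TPM over the 6 libraries, 40.2% passed the test as higher in S127A and 49.8% as lower, by limma on log2(TPM + 1) at an adjusted p of 0.05. A call by itself therefore says little about a member, and the size of its difference says more. Changes of at least 2-fold in TPM + 1 that passed were found for 6 members higher and 1 lower, against 15.5% of tested genes higher and 19.9% lower. Folds given for single genes below are ratios of mean TPM. With a pseudocount of 5 the log2 differences of EGR2 (0.59) and EGR3 (0.49) lay below 2-fold. EGR2 and EGR3 reached the mean of 1 TPM only through their S127A libraries and NR4A3 only through its WT libraries, so these 3 had to differ and the counts over all 9 members describe them only. The other 6 members averaged 1 TPM or more in both groups, and of these 5 were higher and 1 was lower in S127A, with 4 at least 2-fold higher and 0 at least 2-fold lower. Of all 8931 genes at 1 TPM or more in both groups, 3556 were higher and 4351 lower, with 1047 at least 2-fold higher and 1297 at least 2-fold lower. The median log2 difference was 1.72 over those 6 members and −0.09 over those 8931 genes.

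The 2 groups also differed in the markers of the labelled cell type. All 7 melanocyte markers were lower in S127A, with a summed level of 26.8 to 32.4 TPM per S127A library, against 14911 to 15194 TPM per WT library. The 10 fibroblast markers summed to 301 to 313 TPM in S127A libraries and 16.2 to 17.2 TPM in WT libraries, of which COL1A2 held 275 ± 6.56 TPM in S127A and 1.41 ± 0.164 TPM in WT. POSTN went the other way, with 0.0667 ± 0.0231 TPM in S127A and 7.79 ± 0.912 TPM in WT. LUM and THY1 were at 0 in all S127A libraries and averaged 0.06 TPM or less in WT. DCN was at 0 in all WT libraries and averaged 1.02 TPM in S127A. The 6 listed immune markers of 8 summed to 48.6 to 51.3 TPM in S127A and 7.20 to 8.28 TPM in WT, of which CD14 held 45.1 ± 1.77 TPM in S127A, and CD14 was at 0 in all WT libraries. The 7 listed endothelial or epithelial markers of 8 summed to 63.6 to 63.9 TPM in S127A and 0.23 to 0.40 TPM in WT. Of these KRT18 held 62.8 ± 0.362 TPM in S127A. CDH5, KDR, KRT8 and KRT19 were at 0 in WT and averaged 0.493 TPM or less in S127A. These marker shifts coincide with the 2 groups. Their part in the early gene differences was not tested and cannot be told apart from that of the genotype. Nor can the S127A change be told apart from other traits of the line that carries it. Fewer cells of a type cannot be told apart from less RNA per cell. Columns summed to 830745 to 833332 TPM in S127A libraries and 862949 to 864529 TPM in WT libraries, and TPM keeps no read depth. The labels do not say whether each library had its own culture. The p-values therefore reflect only how far these libraries scatter, which may be technical.

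**Figure D1:**
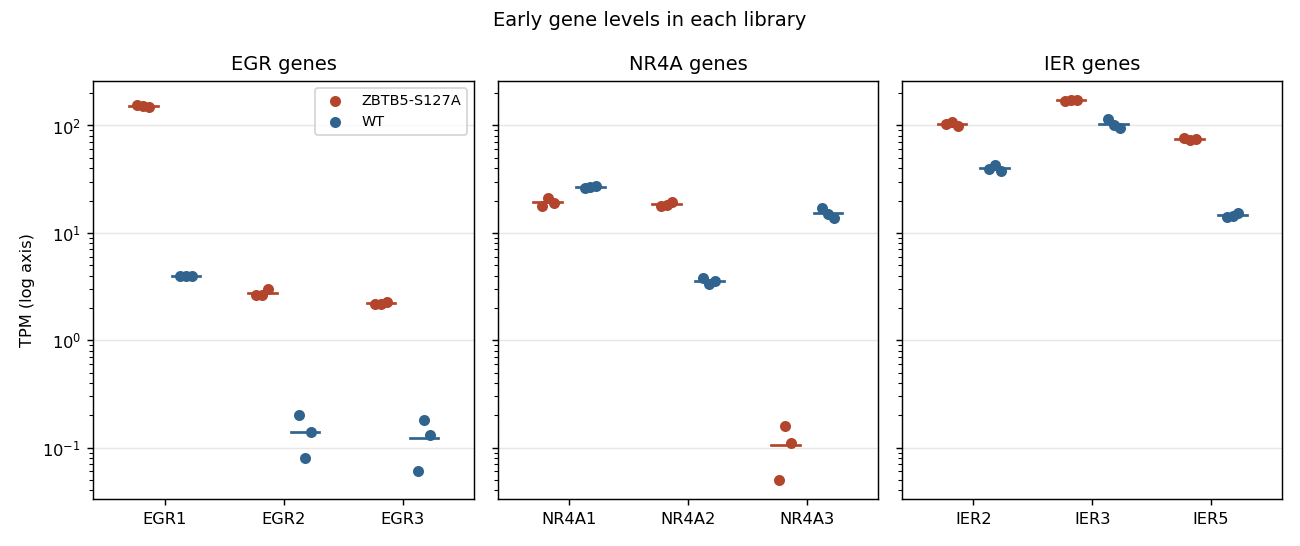
Level of each early gene in each library, in TPM on a log axis. Points are libraries (3 per group, S127A left in red, WT right in blue) and short lines are group means. The 2 groups overlap for none of the 9 genes, of which EGR2, EGR3 and NR4A3 had to differ. This says little, since 40.2% of all tested genes passed as higher in S127A and 49.8% as lower. Those are shares of test calls, and the share of all genes without overlap was not counted. EGR1 stands at 150 to 154 TPM in S127A libraries, against 3.93 to 4 TPM in WT libraries.

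EGR1 is the member of its family that most cell types induce on growth factor or stress signals. It held 154.37, 152.88 and 150.12 TPM in the S127A libraries, against 4, 3.93 and 3.98 TPM in the WT libraries. The level was about even within each group and 38.4-fold higher in S127A. The log2 difference was 4.95 (SE 0.0413, 95% interval 4.86 to 5.04, adjusted p = 1.19e-14 by limma). In rank, EGR1 lay above 94.1% of all listed symbols in S127A and above 39.6% in WT. The gene lies on mouse chromosome 18 from 34859823 to 34864984, plus strand (mm10, ENSMUSG00000038418.7), and no other annotated gene overlaps it or any of the other 8 members.

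EGR2, known for its role in myelination by Schwann cells, was low in both groups but higher in S127A. It held 2.65, 2.61 and 2.97 TPM in S127A libraries, against 0.20, 0.08 and 0.14 TPM in WT libraries (log2 difference 1.72, SE 0.0821, adjusted p = 4.01e-09 by limma). EGR3, known from muscle spindle development and T cells, held 2.19, 2.18 and 2.29 TPM in S127A libraries, against 0.06, 0.18 and 0.13 TPM in WT libraries (log2 difference 1.52, SE 0.0791, adjusted p = 8.31e-09 by limma). Both genes were separated without overlap, from a WT level close to 0. Their sizes on the log scale depend on the pseudocount: with 0.1 in place of 1 the differences were 3.60 for EGR2 and 3.41 for EGR3, and with 5 they were 0.59 and 0.49. EGR4, the remaining EGR gene, was listed at 0 in all 6 libraries, and WT1, which has related zinc fingers, reached 0.04 TPM in 1 S127A library and was listed at 0 in the other libraries. EGR2 lies on chromosome 10 (67535475 to 67542188, plus strand) and EGR3 on chromosome 14 (70077203 to 70082614, plus strand) of mm10.

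EGR1 made up nearly all EGR transcript in both groups. The summed EGR level was 157 ± 1.91 TPM in S127A and 4.23 ± 0.0379 TPM in WT (SD, n = 3 each). EGR1 took 96.8% ± 0.202 of that sum in S127A and 93.8% ± 0.125 in WT. EGR2 took 1.74% ± 0.145 in S127A and 3.30% ± 1.39 in WT, where its values were near 0.

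NR4A1, also known as Nur77, was the only NR4A gene with a modest difference. It held 17.95, 20.95 and 18.84 TPM in S127A libraries, against 26.08, 26.46 and 27.02 TPM in WT libraries. Every S127A library lay below every WT library, and the mean was 1.38-fold lower in S127A. The log2 difference was −0.45 (SE 0.0587, 95% interval −0.58 to −0.31, adjusted p = 2.62e-05 by limma), which lies inside the interquartile range of all tested genes, −0.79 to 0.57. NR4A1 lies on chromosome 15 (101254269 to 101274795, plus strand, mm10).

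NR4A2, or Nurr1, known for the development of dopamine neurons, rose. It held 17.92, 18.07 and 19.54 TPM in S127A libraries, against 3.82, 3.33 and 3.58 TPM in WT libraries. The groups were far apart relative to their spread, with a 5.18-fold higher mean in S127A and a log2 difference of 2.09 (SE 0.0658, adjusted p = 1.11e-10 by limma). NR4A3, or Nor1, fell close to 0. It held 0.05, 0.16 and 0.11 TPM in S127A libraries, against 16.92, 15.03 and 13.82 TPM in WT libraries (log2 difference −3.87, SE 0.0855, adjusted p = 5.95e-12 by limma). With a pseudocount of 0.1 the NR4A3 difference was −6.25 and with 5 it was −1.99. NR4A2 lies on chromosome 2 (57106830 to 57124003, minus strand) and NR4A3 on chromosome 4 (48045153 to 48086447, plus strand) of mm10.

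The make-up of the NR4A family changed more than its sum. The summed level was 37.9 ± 1.72 TPM in S127A and 45.4 ± 1.29 TPM in WT (SD, n = 3 each). NR4A1 took 50.8% ± 2.37 of it in S127A and 58.5% ± 2.604 in WT. NR4A2 took 48.9% ± 2.47 in S127A and 7.88% ± 0.395 in WT. NR4A3 took 0.278% ± 0.135 in S127A and 33.6% ± 2.52 in WT. S127A cells thus held NR4A1 and NR4A2 at close to equal levels, with an NR4A2 to NR4A1 ratio of 0.998, 0.863 and 1.04 in the 3 libraries, against 0.147, 0.126 and 0.133 in the WT libraries.

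**Figure D2:**
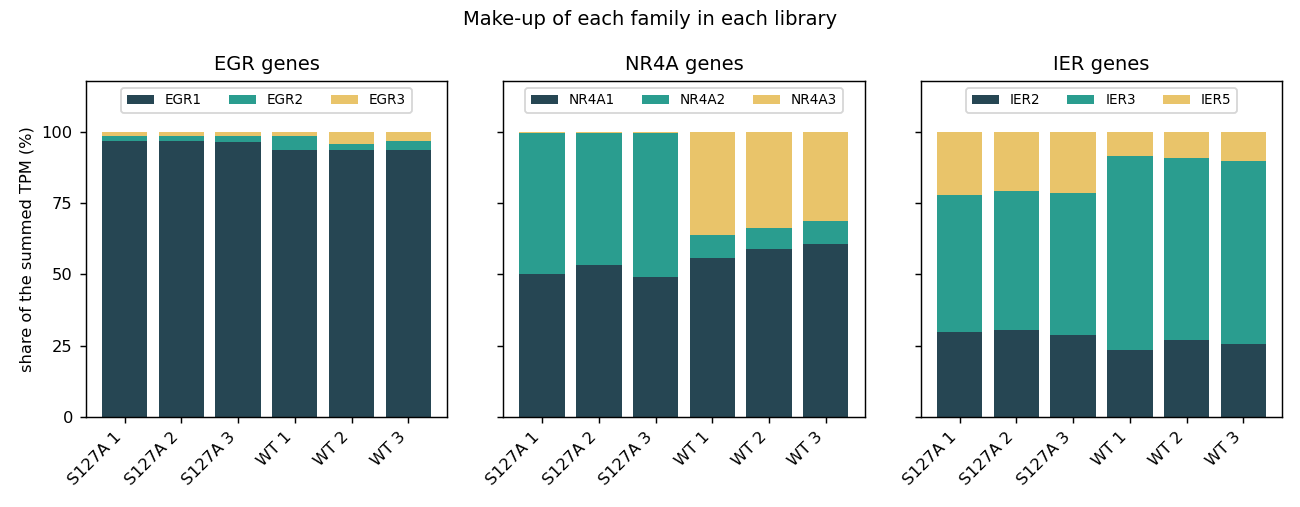
Share of each gene in the summed TPM of its family, in percent, for each library (S127A libraries left, WT libraries right). NR4A2 takes 46.1% to 50.8% of the NR4A sum in S127A libraries and 7.43% to 8.16% in WT libraries, whereas EGR1 takes 96.61% to 96.96% of the EGR sum in S127A libraries and 93.65% to 93.9% in WT libraries.

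The upstream sequences of the NR4A genes are shown because the 3 genes share a motif there and moved in different directions. They are RefSeq promoter sequences of GRCm38.p6 (mm10), 5′ to 3′ on the gene's strand, without bases of annotated exons, and the capitals mark the CRE core TGACG on either strand (written as its reverse complement CGTCA where it lies on the other strand) and, in NR4A1, an EGR site. The NR4A1 stretch is chr15:101266666-101266845 (plus strand), the NR4A2 stretch chr2:57124004-57124183 (minus strand) and the NR4A3 stretch chr4:48045055-48045152 (plus strand). That of NR4A1 lies inside the gene's annotated span (101254269 to 101274795), before an internal start site.
NR4A1: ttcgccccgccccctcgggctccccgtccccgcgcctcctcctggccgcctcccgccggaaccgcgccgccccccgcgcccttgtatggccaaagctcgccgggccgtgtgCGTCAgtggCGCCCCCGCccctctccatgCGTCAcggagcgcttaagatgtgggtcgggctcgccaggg
NR4A2: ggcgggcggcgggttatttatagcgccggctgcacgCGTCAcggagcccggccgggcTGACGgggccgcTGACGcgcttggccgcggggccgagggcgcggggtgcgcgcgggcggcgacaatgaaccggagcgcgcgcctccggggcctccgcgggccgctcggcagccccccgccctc
NR4A3: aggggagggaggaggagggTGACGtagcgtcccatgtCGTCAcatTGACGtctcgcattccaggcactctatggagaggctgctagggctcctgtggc
Each of the 3 NR4A windows of 250 bases before a RefSeq start site held 4 CRE core matches, some of them outside the stretches printed. Of 32851 mouse promoter windows of the same length, 17.8% held at least 1 and 0.137% held 4 or more, windows that overlap each other included. These windows belong to the gene that was higher in S127A and to the 2 that were lower, and a match is a description and not a binding site.

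Of the 9 members 6 had a RefSeq window. The other motifs searched on both strands were the full CRE TGACGTCA, which contains the core on both strands, the EGR site as GCGGGGGCG or GCGTGGGCG, the NR4A monomer site NBRE as AAAGGTCA, the CArG box bound by SRF, and the NF-kB site. They occur in 1.55% (full CRE), 3.06% (EGR site), 1.34% (NBRE), 1.47% (CArG box) and 3.9% (NF-kB site) of all windows. EGR2 and IER3 are shown because they carry the motifs of SRF and NF-kB. EGR2 had 5 windows for its several start sites. Of these, 3 overlap and show the same CArG box and the same pair of CRE cores, 1 holds another CArG box, and 1 holds none of the motifs. The EGR2 stretch is chr10:67537689-67537868 (plus strand), with a CArG box and both CRE cores in capitals. The IER3 stretch is chr17:35821504-35821683 (plus strand), with its NF-kB site in capitals.
EGR2: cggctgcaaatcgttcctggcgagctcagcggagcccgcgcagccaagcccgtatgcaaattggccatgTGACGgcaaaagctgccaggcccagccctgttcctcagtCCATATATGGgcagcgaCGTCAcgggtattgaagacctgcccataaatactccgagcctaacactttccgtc
IER3: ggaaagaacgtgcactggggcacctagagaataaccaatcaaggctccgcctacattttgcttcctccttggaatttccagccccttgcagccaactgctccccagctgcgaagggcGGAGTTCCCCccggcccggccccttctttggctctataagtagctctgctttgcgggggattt
No full CRE and no NBRE was found in the windows of these 6 genes, and none of the motifs in that of IER5, which says only that these letters are not in these windows.

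**Figure D3:**
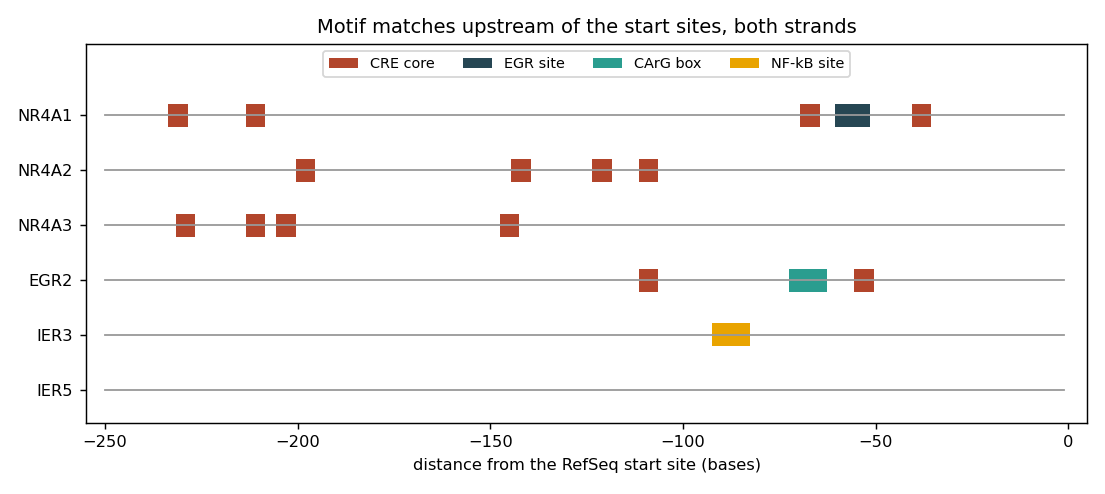
Motif matches in the 250 bases before a RefSeq start site, by distance from that start site in bases, for 6 early genes. Boxes are matches on either strand. The 3 NR4A genes each carry 4 CRE cores, NR4A1 also an EGR site, EGR2 (1 of its 3 overlapping windows) a CArG box and 2 CRE cores, IER3 an NF-kB site, and IER5 none.

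The 3 IER genes were all higher in S127A, and IER2 and IER3 were among the 3 most abundant members in both groups. IER2, a short nuclear protein induced by growth factors, held 102.92, 107.28 and 99.67 TPM in S127A libraries, against 39.23, 42.86 and 37.66 TPM in WT libraries. That is a 2.59-fold higher mean in S127A (log2 difference 1.35, SE 0.0503, adjusted p = 4.61e-10 by limma). IER5, which binds the heat shock factor HSF1 and the phosphatase PP2A, held 76.31, 72.54 and 74.44 TPM in S127A libraries, against 13.97, 14.38 and 15.20 TPM in WT libraries. It showed the largest IER difference, 5.13-fold (log2 difference 2.28, SE 0.0453, adjusted p = 2.50e-12 by limma). IER2 lies on chromosome 8 (84661331 to 84662852, minus strand) and IER5 on chromosome 1 (155096361 to 155099636, minus strand) of mm10.

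IER3, a regulator of cell survival under stress, was the most abundant member in both groups and had, at the pseudocount of 1, the smallest log2 difference of the 7 that rose. With a pseudocount of 5 those of EGR2 (0.59) and EGR3 (0.49) were smaller than that of IER3 (0.69). It held 168.39, 172.54 and 172.31 TPM in S127A libraries, against 115.48, 101.57 and 95.41 TPM in WT libraries. The WT libraries spread more, with an SD of 9.87% of their mean against 1.36% in S127A, and still did not reach the S127A range. The mean was 1.64-fold higher in S127A (log2 difference 0.72, SE 0.0581, 95% interval 0.59 to 0.84, adjusted p = 4.12e-07 by limma), just above the interquartile range of all tested genes. IER3 lies on chromosome 17 (35821684 to 35822923, plus strand, mm10). The summed IER level was 349 ± 3.18 TPM in S127A and 159 ± 10.2 TPM in WT. IER5 took 21.3% ± 0.692 of it in S127A and 9.20% ± 0.992 in WT, and IER3 took 49.1% ± 0.654 in S127A and 65.6% ± 2.49 in WT.

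IER5L, a relative of IER5 outside the 9 genes, showed no call. It held 5, 6.17 and 4.03 TPM in S127A libraries, against 4.59, 4.85 and 4.47 TPM in WT libraries, with overlapping groups (log2 difference 0.09, SE 0.112, 95% interval −0.16 to 0.34, adjusted p = 0.45 by limma). S127A replicates 2 and 3 decided this value: without replicate 2 the difference was −0.037 (adjusted p = 0.718) and without replicate 3 it was 0.22 (adjusted p = 0.048). It also passed with quantile normalization (0.36, adjusted p = 0.00781), and its adjusted p ran up to 0.718 over the alternatives.

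**Figure D4:**
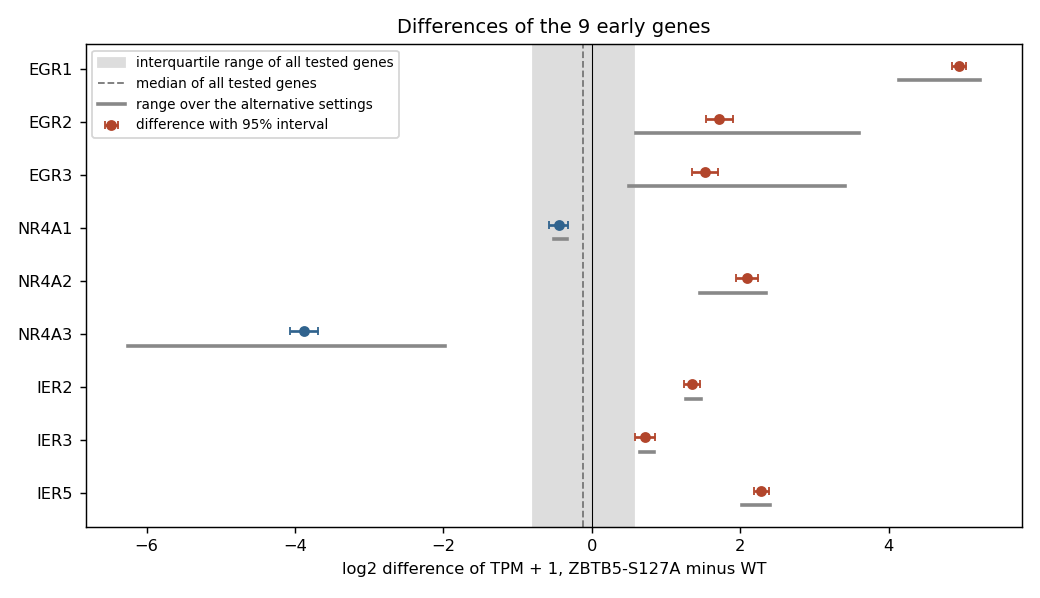
Log2 difference of TPM + 1, S127A minus WT, for each early gene. Points with bars are the difference and its 95% interval (n = 3 per group; red higher, blue lower in S127A), grey lines the range over the alternative settings, the band the interquartile range of all tested genes (−0.79 to 0.57) and the dashed line their median (−0.12). EGR1 lies farthest right at 4.95, NR4A3 farthest left at −3.87, and NR4A1 lies within the band.

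Levels within a group put the 9 genes in different orders. In S127A cells IER3 (171 ± 2.33 TPM) stood above EGR1 (152 ± 2.16 TPM), IER2 (103 ± 3.82 TPM) and IER5 (74.4 ± 1.89 TPM). NR4A1 (19.2 ± 1.54 TPM) and NR4A2 (18.5 ± 0.895 TPM) followed with overlapping libraries, then EGR2 (2.74 ± 0.197 TPM), EGR3 (2.22 ± 0.0608 TPM) and NR4A3. In WT cells IER3 (104 ± 10.3 TPM) again came first, ahead of IER2 (39.9 ± 2.67 TPM), NR4A1 (26.5 ± 0.473 TPM), NR4A3 (15.3 ± 1.56 TPM) and IER5 (14.5 ± 0.626 TPM). The libraries of NR4A3 and IER5 overlapped, and those of EGR1 (3.97 ± 0.0361 TPM) lay just above those of NR4A2 (3.58 ± 0.245 TPM). EGR2 and EGR3 came last with overlapping libraries. Within the groups no library stood apart over the members: the largest deviation of a member from its group mean was 0.15 on the log2 scale, in IER3 of WT replicate 1.

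The genes with the most similar pattern were found by the distance between log2(TPM + 1) values over the 6 libraries, each centred on its own mean, among all tested genes. Nearest to EGR1 were COL18A1 (distance 0.0743), PTGFRN (0.0827) and PLCL2 (0.101). COL18A1, a basement membrane collagen, averaged 43.5 ± 0.545 TPM in S127A and 0.457 ± 0.0473 TPM in WT. Nearest to NR4A3 were DOCK3 (0.185), SLCO3A1 (0.212) and SLC4A8 (0.216). DOCK3, an exchange factor for RAC, averaged 0.217 ± 0.0503 TPM in S127A and 16.7 ± 0.588 TPM in WT. Nearest to IER5 were ANTXR2 (0.117), CCDC85B (0.118) and PRL (0.119). ANTXR2, an anthrax toxin receptor, averaged 142 ± 1.61 TPM in S127A and 30.2 ± 1.10 TPM in WT, whereas PRL averaged 3.78 ± 0.305 TPM in S127A and was listed at 0 in WT. With 2 groups this distance mostly measures an equal difference between them.

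The partner proteins of the members moved in both directions, with 5 of 8 tested higher and 3 lower in S127A and a median log2 difference of 0.20. Over all tested genes 40.2% passed as higher and 49.8% as lower, with a median of −0.12. NAB2 and NAB1 are corepressors that bind EGR proteins, and NAB2 is itself induced by EGR1. NAB2 rose to 61.8 ± 1.58 TPM in S127A, against 14.5 ± 0.719 TPM in WT (log2 difference 2.01, adjusted p = 1.03e-11 by limma), and NAB1 to 93.5 ± 2.63 TPM, against 64.9 ± 0.266 TPM in WT. The EGR1 to NAB2 ratio was 2.47 ± 0.0303 in S127A and 0.273 ± 0.0124 in WT (SD, n = 3 each). Retinoid X receptors pair with NR4A1 and NR4A2, and of these RXRA fell to 20.6 ± 0.969 TPM in S127A, against 54.4 ± 1.51 TPM in WT, while RXRB rose to 57.7 ± 1.28 TPM, against 44.6 ± 2.14 TPM in WT. PPP2CA, the catalytic subunit of PP2A, fell to 208 ± 7.41 TPM in S127A, against 422 ± 10.5 TPM in WT, and HCFC1, a coactivator that binds EGR proteins, to 54.9 ± 1.38 TPM, against 84.8 ± 2.44 TPM in WT. HSF1, the partner of IER5, was higher by 0.17 on the log2 scale (adjusted p = 0.0148 by limma). It no longer passed when WT replicate 1 (0.13, adjusted p = 0.0638) or S127A replicate 2 (0.11, adjusted p = 0.0638) was left out, so that 4 partners were higher there, and no alternative gave HSF1 a larger adjusted p.

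Factors that bind early gene promoters also went both ways, with 6 of 13 tested higher, 6 lower and a median log2 difference of 0.15. These counts lie near the shares of all tested genes, 40.2% higher and 49.8% lower, whose median was −0.12. SRF itself fell to 23.8 ± 1.24 TPM in S127A, against 37.2 ± 1.41 TPM in WT (log2 difference −0.62, adjusted p = 4.42e-07 by limma). Of its ETS-type partners ELK1 fell to 10.4 ± 0.505 TPM in S127A, against 25.5 ± 1.40 TPM in WT, and ELK3 rose to 61.6 ± 1.71 TPM in S127A, against 23.2 ± 1.72 TPM in WT. ELK4 did not pass, with 26.04 ± 3.59 TPM in S127A and 23.2 ± 0.405 TPM in WT (log2 difference 0.15, adjusted p = 0.09 by limma). It passed as higher under 6 alternatives, among them trimmed means (0.27, adjusted p = 0.00814), the replicate block (adjusted p = 0.043) and leaving out S127A replicate 2 (0.21, adjusted p = 0.0409) or replicate 3 (0.20, adjusted p = 0.0487), and its adjusted p reached 0.354 without S127A replicate 1 (0.047). Among the cAMP-responsive factors CREM fell to 5.24 ± 0.936 TPM in S127A, against 33.2 ± 1.51 TPM in WT, and ATF1 rose to 107 ± 1.29 TPM, against 54.7 ± 2.46 TPM in WT. CREB1 passed narrowly at 30.9 ± 1.17 TPM in S127A and 34.4 ± 2.55 TPM in WT (log2 difference −0.15, adjusted p = 0.0296 by limma). It did not pass with TPM rescaled by trimmed means (−0.03, adjusted p = 0.621), the highest adjusted p over its alternatives, nor under 5 others, among them leaving out WT replicate 1 (adjusted p = 0.121), S127A replicate 2 (0.0822) or S127A replicate 3 (0.0894). MEF2C, a MADS-box factor of muscle, lymphoid and neural crest cells, fell to 0.0167 ± 0.0153 TPM in S127A, against 20.3 ± 0.337 TPM in WT, and MEF2A rose to 55.6 ± 0.503 TPM, against 34.7 ± 0.971 TPM in WT.

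Of 11 tested genes known as EGR1 targets, 9 were higher and 2 lower in S127A, with a median log2 difference of 1.86, against −0.12 over all tested genes. The shares called over all tested genes were 40.2% higher and 49.8% lower. NAB2, one of the 9 that were higher, is also counted among the partner proteins. The prostaglandin E synthase PTGES rose to 239 ± 6.61 TPM in S127A, against 0.903 ± 0.216 TPM in WT. Fibronectin (FN1) rose to 538 ± 13.6 TPM in S127A, against 31.7 ± 0.942 TPM in WT. Tissue factor (F3) fell to 15.3 ± 0.396 TPM in S127A, against 25.4 ± 0.561 TPM in WT. Of the 11 tested genes 3, PTGES among them, reached the mean needed for a test through S127A alone. Among the fibroblast markers COL1A2 was higher and POSTN lower in the same S127A libraries, and their part in the higher FN1 was not tested.

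The 40 other early response genes included 36 tested genes, of which 24 were higher and 11 lower in S127A with a median log2 difference of 1.77. By comparison, 40.2% of all tested genes passed as higher and 49.8% as lower, with a median of −0.12. The list holds SRF and ZFP36, which also stand in other lists here. Of the 36, 8 reached the mean through 1 group alone and so had to differ, PTGS2, FOSL1, DUSP5, ATF3 and GEM among them. Prostaglandin synthase PTGS2 (439 ± 10.4 TPM in S127A, 0.187 ± 0.0681 TPM in WT), the AP-1 subunit FOSL1 (397 ± 15.1 TPM in S127A, 0.367 ± 0.112 TPM in WT) and the ERK phosphatase DUSP5 (53.8 ± 1.20 TPM in S127A, 0.243 ± 0.103 TPM in WT) were highest by log2 difference at the pseudocount of 1. The stress factor ATF3 (0.203 ± 0.0971 TPM in S127A, 40.9 ± 1.17 TPM in WT), the small GTPase GEM (0.0167 ± 0.0289 TPM in S127A, 2.63 ± 0.437 TPM in WT) and the nuclear phosphatase DUSP2 (2.53 ± 0.573 TPM in S127A, 8.35 ± 0.747 TPM in WT) were lowest. DUSP1 was the 1 tested gene that did not pass, at 14.1 ± 0.698 TPM in S127A and 14.0 ± 0.674 TPM in WT (log2 difference 0.01, adjusted p = 0.826 by limma).

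Of the 8 proteins that bind AU-rich mRNAs, a class of sequence that shortens the life of many early transcripts, 2 were higher and 5 lower, with a median log2 difference of −0.34. The shares of all tested genes were 40.2% higher and 49.8% lower, with a median of −0.12. The decay factors ZFP36L2 and ZFP36 rose, ZFP36L2 to 150 ± 2.22 TPM in S127A, against 33.6 ± 0.585 TPM in WT, and ZFP36 to 25.5 ± 1.84 TPM, against 8.90 ± 0.360 TPM in WT. ZFP36L1 fell to 39.8 ± 1.88 TPM in S127A, against 57.1 ± 3.66 TPM in WT, as did KHSRP (107 ± 4.72 TPM in S127A, 156 ± 2.66 TPM in WT) and TIA1 (48.0 ± 0.257 TPM in S127A, 69.7 ± 1.30 TPM in WT). HNRNPD did not pass, at 55.4 ± 3.16 TPM in S127A and 58.4 ± 1.40 TPM in WT (log2 difference −0.08, adjusted p = 0.139 by limma), but passed as lower without S127A replicate 1 (−0.12, adjusted p = 0.0139). Its adjusted p reached 0.944 with quantile normalization, where its sign turned.

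Chaperone genes known as targets of HSF1, with which IER5 acts, gave 1 of 7 tested higher and 5 lower, with a median log2 difference of −0.27. Among all tested genes 40.2% passed as higher and 49.8% as lower, with a median of −0.12. HSP90AA1 fell to 839 ± 29.7 TPM in S127A, against 1832 ± 59.1 TPM in WT, BAG3 to 29.3 ± 0.923 TPM, against 46.02 ± 1.47 TPM in WT, and HSPD1 to 1148 ± 36.0 TPM, against 1643 ± 7.76 TPM in WT. DNAJB1 rose to 39.8 ± 1.16 TPM in S127A, against 32.4 ± 0.855 TPM in WT, and HSPH1 did not pass, at 120 ± 3.30 TPM in S127A and 115 ± 2.22 TPM in WT (log2 difference 0.06, adjusted p = 0.124 by limma). The inducible chaperones HSPA1A and HSPA1B had identical values, 0.20 TPM or less in S127A libraries and 0.33 TPM or less in WT libraries, and as near-identical copies they cannot be told apart. The number higher was 2 with TPM rescaled by trimmed means or to a common total and 3 with quantile normalization, HSPH1 among them each time (0.18 with trimmed means, adjusted p = 4.50e-04). The number lower fell from 5 to 4 under several alternatives, among them trimmed means, quantile normalization and leaving out WT replicate 2.

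**Figure D5:**
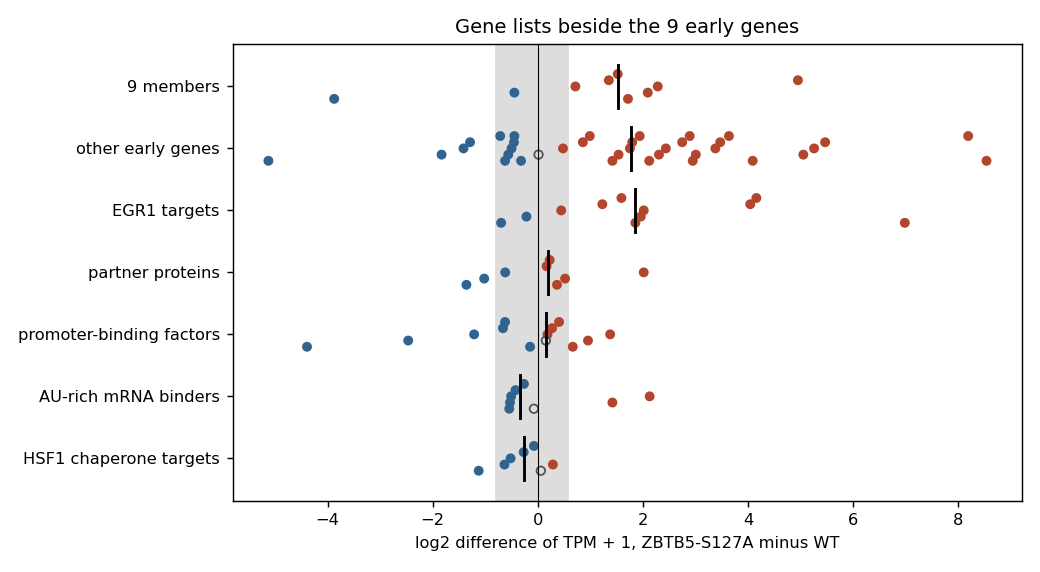
Log2 difference of TPM + 1, S127A minus WT, for the tested genes of the 9 members and 6 gene lists, without the cell type markers. Filled points passed the test (red higher, blue lower in S127A), open points did not, black bars are list medians and the band is the interquartile range of all tested genes. Medians run from −0.34 for AU-rich mRNA binders to 1.86 for EGR1 targets among these 6 lists.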

How the data were processed

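RNA-seq was made from total RNA extracted with TRIzol and primed with random hexamers, per the labels' protocols. The values deposited by the authors are TPM by gene symbol, per the file headers, in 1 table. The genome build is mm10 according to the submitters' processing notes. Aligner, quantifier, annotation and strandedness were not given in the sources used here. Groups and replicate numbers came from the sample titles.

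Genes with a mean of at least 1 TPM were tested on log2(TPM + 1) with limma 3.58.1 in R 4.3.3 (lmFit, eBayes with a trend, genotype alone in the model and a two-sided test). The p-values were adjusted over 10348 genes by the Benjamini-Hochberg method, with a threshold of 0.05. Lists are given by counts and medians, with no set test. The fit was also run on simulated data in which few genes changed, all of them raised. That check cannot speak for a difference as broad as the one here. Of the table's symbols 14017 matched a GENCODE M21 mouse symbol written in upper case, which gave coordinates, and upstream sequences came from RefSeq GRCm38.p6. Summaries used Python 3.11.15 and pandas 2.3.3.

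The 9 members, the lists, the motifs and the rule for named genes were chosen with earlier results of these data known. The rule named the 9 members, EGR4, WT1, IER5L, SRF, CREB1, up to 3 higher and 3 lower called genes per list by size, and the 3 nearest genes to the most changed member of each family. Some genes that the rule or a list holds are counted but not reported here by name. HSF1, ELK4, DUSP1, HNRNPD, HSPH1, HSPA1A, HSPA1B, CD14, KRT18, COL1A2 and POSTN were named after their values were seen. Alternatives changed the pseudocount (0.1 or 5) and the filter (none, or a mean of at least 5 TPM) or used TPM rescaled by trimmed means of M-values or to a common total, quantile normalization, eBayes without a trend, or the replicate number as a block. Each library was also left out once. Since TPM keeps no depth, no counting error was given.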

Additional observations from a re-analysis of the deposited data

How the results depend on the processing

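All 9 members kept their direction and their call under each of the 15 alternatives that could test them. EGR2 was not tested at a mean of at least 5 TPM, and EGR3 was not tested there or without any 1 of the S127A libraries. The number of members higher in S127A therefore ran from 5 to 7 over all alternatives and from 6 to 7 over the left-out libraries, and the number lower was 2 throughout. All called genes ran from 8159 to 10593, and from 9123 to 9211 over the left-out libraries. Rescaling by trimmed means moved the median log2 difference of all genes by 0.12 and quantile normalization by 0.11, and the higher share of all called genes was 50.03% and 49.8% with them, against 44.7% on TPM as deposited. With trimmed means NR4A1 was −0.33 and IER3 0.84. Of 1009 recomputed differences of 68 genes 983 kept direction and call. The exceptions included CREB1 (lost in 6 alternatives), HSF1 (lost in 2), ELK4 (gained in 6, 0.27 at most), HSPH1 (gained in 3), HNRNPD (not called and 0.044 with trimmed means and 0.0036 with quantile normalization, called at −0.12 without S127A replicate 1), DUSP1 (never called, −0.021 to 0.046 over the left-out libraries) and IER5L (0.36 and called with quantile normalization, 0.22 and called without S127A replicate 3, −0.037 and not called without S127A replicate 2); the cause was not tested. Deviations of same-numbered libraries correlated at 0.117, 0.0174 and 0.0279 across genes and S127A replicate 2 correlated best with WT replicate 3, so the numbers were not taken as pairs. With a replicate block 4178 genes were higher and 5161 lower and 7 members were higher and 2 lower. The depth behind each value is unknown, which limits the genes near 0 most: EGR2, EGR3 and NR4A3.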
